A study of Mus musculus with 6 samples.

Results

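The proteasome genes of mouse cells labelled as vascular smooth muscle cells (VSMCs) were compared between Ad-PDK4 and Ad-Con libraries. The members were the protein-coding genes whose symbol begins with Psm, followed by a letter from a to g and a digit. They numbered 50 of the 54532 genes in the deposited table, of which 22046 are protein coding. Psmb8, Psmb9, Psmb10, Psme1 and Psme2 formed the 5 inducible members, and the other 45 formed the constitutive rest. The rule reads gene names and biotypes, and was set with earlier results of these data known.

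The 6 libraries fell into 2 groups of 3. All came from cultured cells labelled VSMC, which the study isolated from the abdominal aorta of wild-type mice, and all had received an adenoviral vector. In the Ad-Con group the vector carried a control plasmid and the genotype label is WT, and in the Ad-PDK4 group it carried a plasmid for pyruvate dehydrogenase kinase 4 and the genotype label is PDK4 overexpression. According to the study, cells of both groups were also exposed to angiotensin II (Ang II), a peptide hormone that raises blood pressure and that is used to provoke aortic aneurysm in mice. The labels give no age, sex, strain or separate culture for a library. The study calls its 3 libraries per group biological replicates without saying whether they came from separate mice or cultures, so the p-values measure only the spread between these libraries. Values were FPKM, that is fragments per kilobase of gene, scaled to library size, from 17588942 to 21861872 assigned reads per library. Reads on Pdk4 numbered 679, 642 and 646 in Ad-Con against 490, 455 and 572 in Ad-PDK4 libraries (log2 fold change -0.42, limma adjusted p = 0.0011). The targeted gene thus goes against its label in this table, so Ad-PDK4 and Ad-Con name the library labels here, and higher means higher under the Ad-PDK4 label.

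The proteasome is the main protease of the cytosol and nucleus and degrades proteins that carry ubiquitin chains. Its 20S core is a barrel of alpha and beta rings, and 3 of the beta subunits (beta 1, beta 2 and beta 5) cut the substrate. The 19S regulatory particle binds ubiquitin chains and unfolds and feeds substrates into the core, using a ring of ATPases. Under interferon, cells make alternative catalytic subunits, beta 1i, beta 2i and beta 5i, which replace the standard ones in newly assembled cores. The resulting immunoproteasome is best known for producing peptides that fit MHC class I molecules. The PA28 cap, made of the products of Psme1 and Psme2, opens the core without ubiquitin or ATP. In vascular smooth muscle, as in other cells, the proteasome turns over cell cycle and signalling proteins.

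All 5 inducible members rose in the Ad-PDK4 libraries, and the 3 that encode catalytic subunits rose most. Their median log2 fold change was 1.95, beside a median of 0.09 over the 44 tested members of the rest and of -0.003 over all 13423 genes tested. A gene was called at a limma adjusted p below 0.05. By that rule 16 of the 49 tested members were higher and 3 were lower, where 21.8% of all genes tested were called higher and 20.8% lower. At least 2-fold changes were called in 5 members, all higher (Psmb8, Psmb9, Psmb10, Psme1 and Psme2b), beside 3.95% of all genes higher and 2.68% lower. The rest held 11 members called higher and 3 called lower of 44, which is 25% and 6.82%. The share of the rest called higher thus lay near that of all genes, and the share called lower lay below it.

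Psmb8 (ENSMUSG00000024338, GRCm38 chr17:34197721-34201454, plus strand) encodes beta 5i, the inducible subunit that cuts after hydrophobic residues. Its level was 1.56, 2.02 and 1.45 FPKM in Ad-Con replicates 1 to 3 and 41.1, 39.5 and 40.1 FPKM in Ad-PDK4 replicates 1 to 3. The groups lay far apart, with a mean of 1.68 ± 0.301 against 40.3 ± 0.806 FPKM (SD, n = 3 each), a 23.996-fold ratio of means. The log2 fold change was 4.52 (SE 0.11, limma adjusted p = 1.07e-07), the largest of the 49 tested members. The Ad-Con level rested on 72 to 97 reads per library and the Ad-PDK4 level on 1892 to 2426. Another annotated gene, Gm20496, overlaps 14.7% of the exon bases of Psmb8, and without stated strand reads from both cannot be told apart there.

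Psmb9 (ENSMUSG00000096727, chr17:34181988-34187764, minus strand) encodes beta 1i, which takes the place of the subunit that cuts after acidic residues. It measured 1.33, 1.35 and 0.995 FPKM in the Ad-Con libraries and 8.58, 8.76 and 8.27 FPKM in the Ad-PDK4 libraries. Every Ad-PDK4 library lay above every Ad-Con library, and the log2 fold change was 2.71 (SE 0.12, limma adjusted p = 2.15e-06). Psmb9 was the least abundant of the 3 inducible catalytic genes in the Ad-PDK4 libraries, per the gene lengths of the deposited table and per those of the principal transcripts. It shares 5.79% of its exon bases with Tap1, which also rose.

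Psmb10 (ENSMUSG00000031897, chr8:105935735-105938444, minus strand) encodes beta 2i. Unlike Psmb8 and Psmb9 it was well expressed in Ad-Con libraries, at 20.9, 19.1 and 18.9 FPKM, and reached 76.3, 81.1 and 70.5 FPKM in Ad-PDK4 libraries. The groups did not overlap, and the log2 fold change was 1.95 (SE 0.07, limma adjusted p = 6.04e-07).

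Psme1 (ENSMUSG00000022216, chr14:55578123-55581529, plus strand) encodes PA28 alpha. Its levels were 45.4, 47.5 and 46.8 FPKM in Ad-Con and 96.6, 95.4 and 97.2 FPKM in Ad-PDK4 libraries, so that the libraries within a group differed little and the groups did not overlap (log2 fold change 1.05, SE 0.04, limma adjusted p = 1.46e-06). Psme2 (ENSMUSG00000079197, chr14:55587441-55591113, minus strand) encodes PA28 beta, the partner of PA28 alpha in the same ring. It measured 18.995, 26.3 and 23.95 FPKM in Ad-Con and 39.0, 46.9 and 37.8 FPKM in Ad-PDK4 libraries (log2 fold change 0.84, SE 0.13, limma adjusted p = 0.0025). The groups did not overlap, although the spread within each was wider than for Psme1.

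Psme2b (ENSMUSG00000078153, chr11:48945354-48946190), a close copy of Psme2 counted as a gene of its own, also spread widely. In each group Psme2b was highest in the library where Psme2 was lowest. Of the 50-base stretches of Psme2 transcripts, 59.3% also occur in another gene, and of those of Psme2b 69.3%. Psme2b read 43.8, 35.0 and 33.6 FPKM in Ad-Con and 88.4, 79.3 and 101 FPKM in Ad-PDK4 libraries, and rose by 1.26 on the log2 scale (SE 0.12, limma adjusted p = 2.36e-04). Its ratio to Psme2 ranged from 1.33 to 2.67 over the 6 libraries, with both groups covering much of that range. How the counting divided reads between both genes is uncertain, so the reads were also summed, a choice made after seeing the data. The sum was 72.1 ± 3.13 against 148 ± 4.36 reads per 1000000 of scaled library size (SD, n = 3), a log2 difference of 1.04, close to that of Psme1.

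**Figure D1:**
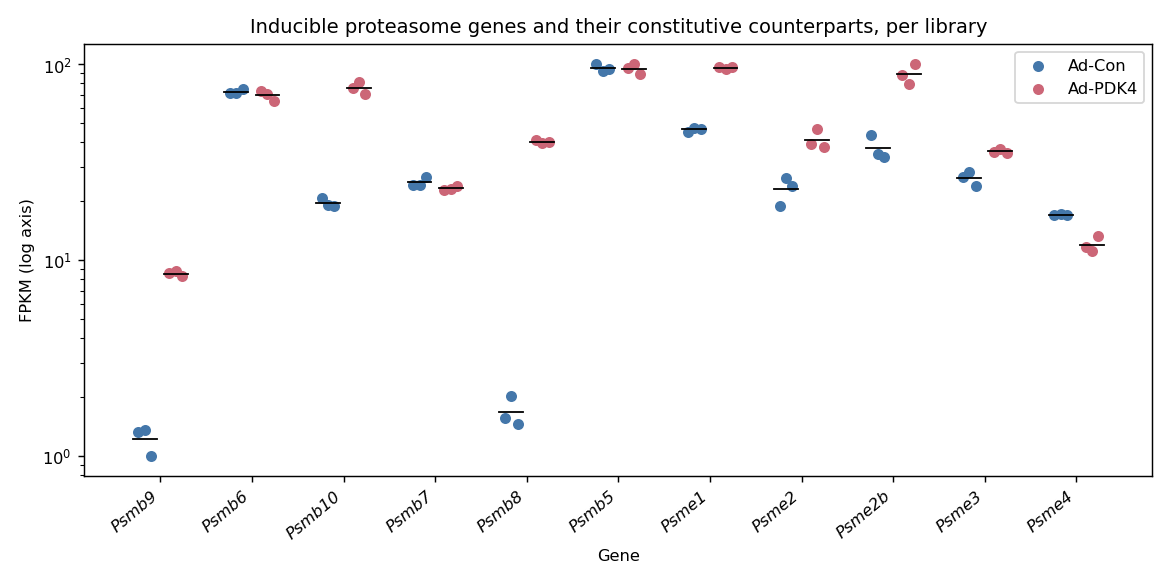
FPKM on a log axis of the 3 inducible catalytic genes beside their standard counterparts and of the activator genes, with 1 point per library (3 Ad-Con, blue, and 3 Ad-PDK4, red) and a bar at each group mean. Psmb8 moves from 1.68 to 40.3 FPKM on average while Psmb5, its counterpart, stays between 89.7 and 101 FPKM in all 6 libraries.

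The standard catalytic genes did not pass the test. Psmb5 (beta 5) measured 101, 92.9 and 94.6 FPKM in Ad-Con and 95.8, 100 and 89.7 FPKM in Ad-PDK4 libraries. These ranges overlapped, and the log2 fold change was -0.01 with a 95% interval from -0.15 to 0.12. Psmb6 (beta 1) measured 71.1, 71.4 and 75.1 FPKM in Ad-Con and 73.2, 70.3 and 64.9 FPKM in Ad-PDK4 libraries, again with overlap (log2 fold change -0.06, 95% interval -0.20 to 0.07). Psmb7 (beta 2) measured 24.2, 24.3 and 26.5 FPKM in Ad-Con and 22.8, 23.0 and 24.1 FPKM in Ad-PDK4 libraries. Its groups just failed to overlap, with a log2 fold change of -0.10 (95% interval -0.23 to 0.03, limma adjusted p = 0.18). Groups without overlap were common, at 27.8% of all genes higher and 26.5% lower, and were found for 21 members higher and 6 lower of 49.

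Against these counterparts the inducible genes gained at each catalytic site. The log2 ratio of Psmb8 to Psmb5 was higher by 4.53 in the Ad-PDK4 libraries, that of Psmb9 to Psmb6 by 2.78 and that of Psmb10 to Psmb7 by 2.05. For each of the 3 pairs all Ad-PDK4 ratios exceeded all Ad-Con ratios. An exact two-sided permutation test gave p = 0.1 for each pair and 0.1 after adjustment over the 3 pairs, the smallest value that 20 arrangements of 3 against 3 libraries allow.

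As a share of the FPKM of both genes at a site, the inducible gene of the beta 5 pair went from 1.72% ± 0.351 to 29.7% ± 1.33 (SD, n = 3). At beta 1 the share went from 1.67% ± 0.312 to 10.96% ± 0.419, and at beta 2 from 44.0% ± 2.34 to 76.5% ± 1.73. These shares depend on the gene lengths, for which the deposited table holds the union of all exons (2736 bases for Psmb8 and 3421 for Psmb7, where the principal transcripts have 1628 and 1160). With principal transcript lengths, chosen after seeing the data, the shares were 2.86% to 41.6% at beta 5, 1.92% to 12.4% at beta 1 and 25.7% to 58.9% at beta 2. The order of the sites stayed the same in the Ad-PDK4 libraries, with beta 2 highest and beta 1 lowest. The summed FPKM of both genes of a pair went from 97.8 ± 4.05 to 135 ± 5.02 at beta 5, from 44.6 ± 1.05 to 99.2 ± 4.78 at beta 2, and from 73.8 ± 2.02 to 78.0 ± 4.40 at beta 1. Of the 50-base stretches of transcripts, 57.1% for Psmb5, 28.1% for Psmb7 and 2.67% for Psmb6 also occur in another gene. The values were 5.83% for Psmb8, 12.5% for Psmb9 and 0% for Psmb10. How counting divided such reads was not tested. The shares are of transcripts, and the subunits built into proteasomes were not measured in this table.

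**Figure D2:**
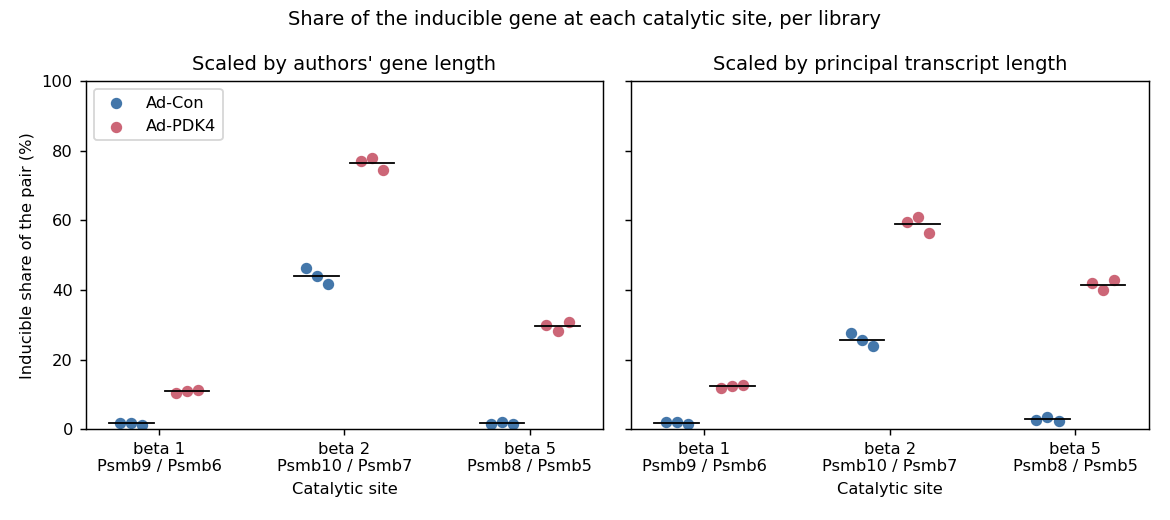
Percentage of the inducible gene in the FPKM sum of the inducible and the standard gene at each catalytic site, with 1 point per library, a bar at the group mean, and the gene length of the deposited table (left) or of the principal transcript (right). The Ad-PDK4 points lie above the Ad-Con points at all 3 sites with either length, and at beta 2 the Ad-Con mean is already 44.0% or 25.7%.

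The inducible genes sit at 3 places in the genome, and their tested protein-coding neighbours within 50 kb were examined. Psmb8 and Psmb9 lie in the MHC on chromosome 17 on both sides of Tap1, the gene for one chain of the transporter that carries cytosolic peptides into the endoplasmic reticulum, and next to Tap2, the gene for the other chain. Tap1 rose from 11.997 ± 0.292 to 31.5 ± 1.98 FPKM (log2 fold change 1.38, limma adjusted p = 1.84e-06) and Tap2 from 13.8 ± 0.476 to 31.0 ± 1.87 FPKM (1.16, limma adjusted p = 5.63e-06). The next tested genes, on the Psmb9 side, encode parts of the MHC class II peptide editor and did not pass the test. Their log2 fold changes were 0.16 for H2-DMb1 and -0.79 for H2-DMa, the latter at 8 to 37 reads per library. Psme1 and Psme2 lie 5912 bases apart on chromosome 14. On the Psme2 side lie Rnf31, which encodes a subunit of the linear ubiquitin ligase and rose by a log2 fold change of 0.83, and Irf9, the DNA-binding part of the type I interferon transcription complex, which rose by 1.58 (9.88 ± 0.455 to 29.7 ± 0.953 FPKM, limma adjusted p = 6.71e-07). Emc9, between Psme1 and Psme2, was at 0.06 and did not pass the test (adjusted p = 0.49). Pck2, on the far side of Psme1, fell by 0.51. Dcaf11 (0.20), Tm9sf1 (0.16) and Ipo4 (-0.10) at the same place did not pass. Around Psmb10 on chromosome 8, Lcat and Slc12a4 rose by 0.84 and 0.51, and Pskh1 (-0.06) and Edc4 (0.01) did not pass the test. Lcat was at 14 to 34 reads per library.

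**Figure D3:**
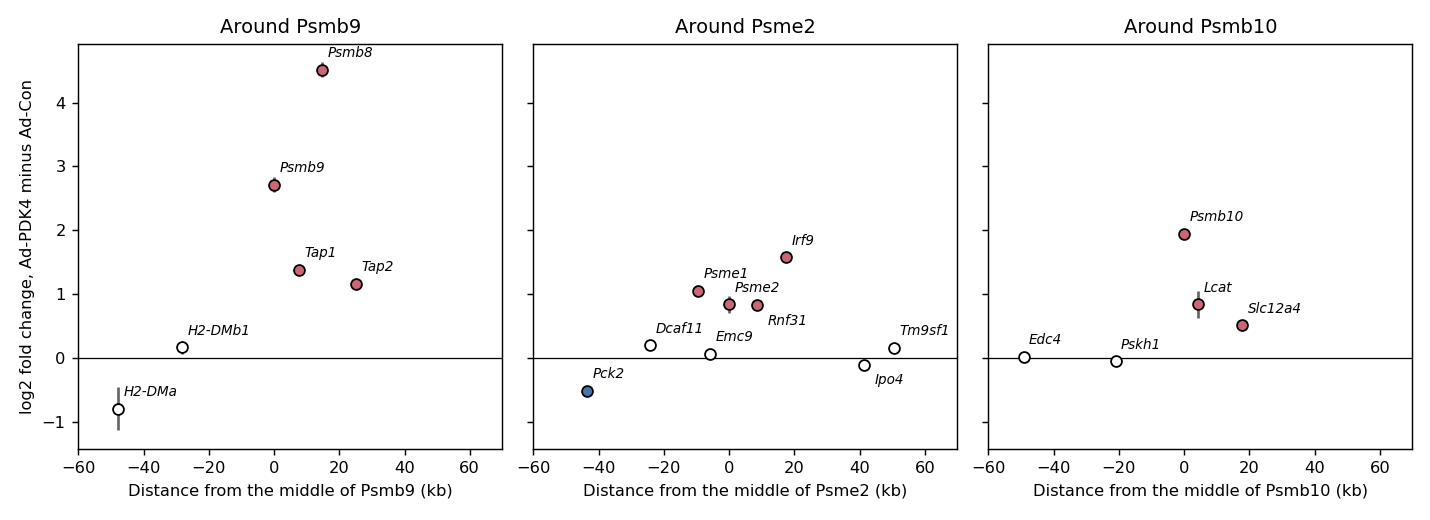
Log2 fold change (Ad-PDK4 minus Ad-Con, bars of 1 SE) of the tested protein-coding genes around Psmb9, Psme2 and Psmb10 against the distance of their middle points in kb, with red for genes called higher, blue for genes called lower and white for genes not called. Psmb9 and Psmb8 stand above Tap1 and Tap2, and Psmb10 stands above each of its neighbours.

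The start regions of these genes are shown because Psmb9 and Tap1, which both rose, start from almost the same stretch of DNA. In RefSeq (GRCm38.p6) their start sites are separated by 225 bases and face in opposite directions, so that 275 bases are common to their windows of 300 bases around the start. The stretch between both starts is given first, read 5′ to 3′ on the minus strand toward Psmb9. The 250 bases before the RefSeq starts of Psmb8 and of its counterpart Psmb5, which was not called, follow for comparison. Then comes a site of 20 bases just after the RefSeq start of Psme1. By the gene coordinates given above, which reach further out, the Psmb9 and Psmb8 stretches lie within those genes. The Psmb5 stretch lies partly within its gene, chr14:54614119-54618022. Capitals mark matches, on either strand, to 1 of 3 motifs: the gamma-activated site TTCNNNGAA, the antioxidant response core TGANNNNGC bound by Nrf factors, and an interferon-stimulated response core made of GAAA, any 2 bases and GAAA again.
Psmb9, chr17:34187331-34187555, minus strand: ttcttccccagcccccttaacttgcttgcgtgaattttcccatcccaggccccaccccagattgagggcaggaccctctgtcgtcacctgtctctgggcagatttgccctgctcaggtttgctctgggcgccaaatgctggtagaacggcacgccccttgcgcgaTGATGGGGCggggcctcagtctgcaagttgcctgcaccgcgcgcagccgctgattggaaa
Psmb8, chr17:34197945-34198194, plus strand: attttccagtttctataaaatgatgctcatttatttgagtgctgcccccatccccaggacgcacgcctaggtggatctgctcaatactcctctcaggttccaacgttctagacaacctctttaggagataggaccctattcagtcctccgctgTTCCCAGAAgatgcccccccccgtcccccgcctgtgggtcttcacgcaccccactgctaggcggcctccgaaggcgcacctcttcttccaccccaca
Psmb5, chr14:54617996-54618245, minus strand: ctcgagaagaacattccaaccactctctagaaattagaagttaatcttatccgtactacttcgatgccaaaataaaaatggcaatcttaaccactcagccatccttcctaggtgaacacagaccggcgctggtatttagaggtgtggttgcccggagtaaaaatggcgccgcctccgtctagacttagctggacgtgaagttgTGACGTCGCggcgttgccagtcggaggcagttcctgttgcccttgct
Psme1, chr14:55578498-55578517, plus strand: tgtgcTTTCGCTTTCccttc

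The match printed for Psmb8 is to the gamma-activated site and begins 97 bases before its RefSeq start. The matches printed for Psmb9 and Psmb5 are to the antioxidant response core, beginning 60 and 47 bases before their RefSeq starts. The match in Psme1 is to the interferon-stimulated response core on the opposite strand, beginning at base 10 after the RefSeq start. All 5 inducible genes had a window, and the interferon-stimulated core was found in 1 of them, the gamma-activated site in 1 and the antioxidant core in 3. Of the rest, 37 of 45 genes had a window used here, and the counts were 4, 2 and 21. Member windows on chromosome 18, where Psma8 and Psmg2 lie, were not used. Among all 32817 windows, 3.43%, 8.29% and 41.3% hold the 3 motifs in that order. The match of letters describes the windows only, and no binding was measured.

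The 20S core outside the inducible genes changed little in sum. The 7 alpha ring genes, 4 structural beta genes and 3 standard catalytic genes added up to 718 ± 12.1 FPKM in Ad-Con and 710 ± 7.90 FPKM in Ad-PDK4 libraries (SD, n = 3), a ratio of 0.989. Of these 14, 2 were called higher and 2 lower, which is 14.3% each way beside 21.8% and 20.8% of all genes, with a median log2 fold change of -0.01. In the alpha ring, which gates the entry to the barrel, Psma4 (alpha 3) rose from 46.0 ± 2.27 to 55.0 ± 3.26 FPKM and Psma2 (alpha 2) from 25.9 ± 0.966 to 31.0 ± 1.23 FPKM, both by 0.26. Psma5 (alpha 5) was at the low end of the ring with -0.16 and did not pass (limma adjusted p = 0.069). It shares 55.4% of its 50-base stretches with other annotated genes, and Psma4 31.5%.

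Among the structural beta genes, which complete the inner rings without cutting, Psmb4 (beta 7) fell by 0.18 on the log2 scale, from 86.3 ± 1.32 to 76.0 ± 3.38 FPKM (limma adjusted p = 0.018), and Psmb1 (beta 6) also fell by 0.18, from 50.1 ± 1.78 to 44.2 ± 1.64 FPKM (limma adjusted p = 0.024). Both calls were lost when Ad-Con 1, Ad-Con 3 or Ad-PDK4 1 was left out, which leaves 1 member called lower in place of 3. Psmb2 (beta 4) at 0.09 and Psmb3 (beta 3) at 0.08 did not pass. The changes in the core were thus small beside those of the inducible genes, and went both ways.

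The 19S genes summed to 772 ± 13.3 FPKM in Ad-Con and 859 ± 4.53 FPKM in Ad-PDK4 libraries, a ratio of 1.11. Of the 17, 5 were called higher (29.4%, near the 21.8% of all genes) and 0 lower (20.8% of all genes), with a median log2 fold change of 0.13. At an unadjusted p below 0.05 no 19S gene was lower either. The base of the particle holds a ring of 6 ATPases, 3 of which rose. Psmc5 (Rpt6) measured 77.0, 77.6 and 78.8 FPKM in Ad-Con and 113, 121 and 111 FPKM in Ad-PDK4 libraries, without overlap (log2 fold change 0.56, SE 0.05, limma adjusted p = 7.07e-05), the largest change of the 19S genes. Psmc2 (Rpt1) rose by 0.35, from 26.9 ± 0.698 to 34.2 ± 0.401 FPKM, and Psmc4 (Rpt3) by 0.16 (limma adjusted p = 0.038). The Psmc4 call was lost in 7 of 16 alternatives. Psmc3 (Rpt5, 0.13, limma adjusted p = 0.056), Psmc6 (Rpt4, 0.09) and Psmc1 (Rpt2, -0.03) did not pass. The ATPases act as 1 ring with 1 copy of each. In Ad-Con libraries their transcripts spanned a 3.22-fold range of FPKM, or 2.08-fold with principal transcript lengths.

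Of the 11 non-ATPase genes, Psmd12 (Rpn5, a lid subunit) rose by 0.23 and Psmd8 (Rpn12, also in the lid) by 0.21. The Psmd8 call was lost without Ad-Con 1 (0.17). The other 9 ran from 0.15 for Psmd4 (Rpn10, a ubiquitin receptor) to -0.04 for Psmd3 (Rpn3). Among them were Psmd14 (Rpn11, which removes the ubiquitin chain from the substrate) at 0.11 with a 95% interval from -0.02 to 0.24, and the large scaffolds Psmd1 (Rpn2) at 0.06 and Psmd2 (Rpn1) at -0.03.

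**Figure D4:**
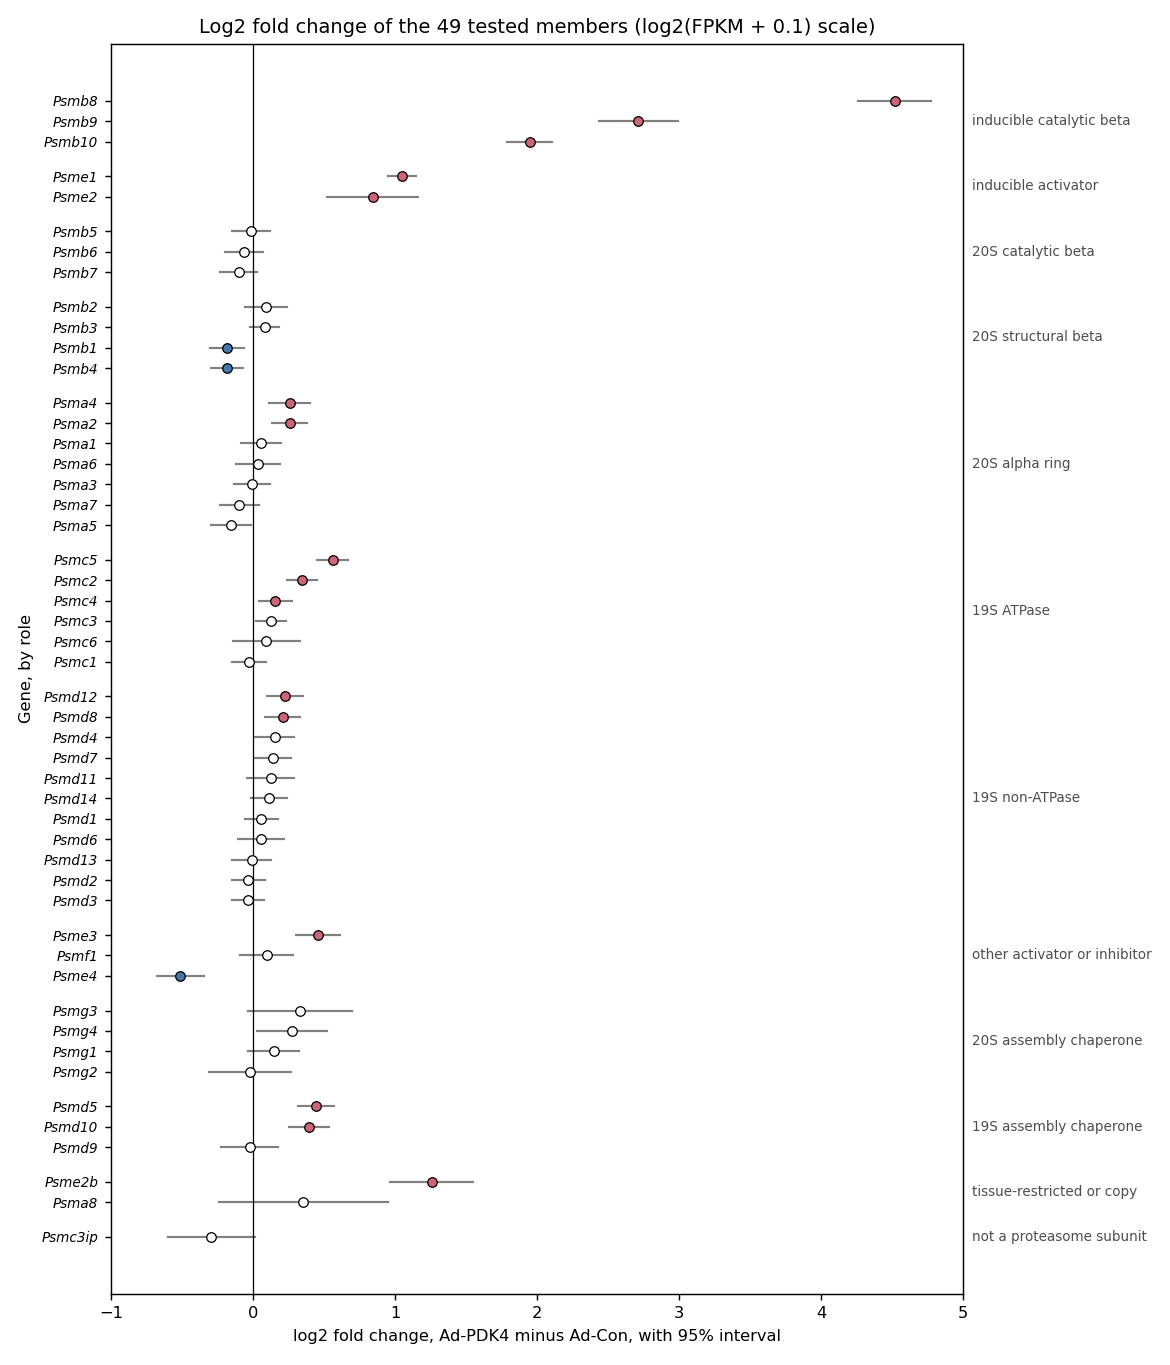
Log2 fold change (Ad-PDK4 minus Ad-Con, on the log2(FPKM + 0.1) scale) with its 95% interval for the 49 tested members, grouped by role, with red for members called higher, blue for called lower and white for not called. The 5 inducible genes and Psme2b lie at 0.84 or above, and all other members lie between -0.51 and 0.56.

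The other caps moved apart. Psme3, which encodes the nuclear activator PA28 gamma, measured 26.7, 28.1 and 23.8 FPKM in Ad-Con and 35.8, 36.9 and 35.2 FPKM in Ad-PDK4 libraries. Its groups did not overlap, and it rose by 0.46 (SE 0.07, limma adjusted p = 0.0012). Psme4, which encodes the PA200 cap, measured 17.1, 17.2 and 17.1 FPKM in Ad-Con and 11.7, 11.1 and 13.3 FPKM in Ad-PDK4 libraries. It fell by 0.51 (SE 0.07, limma adjusted p = 9.27e-04), the largest fall among the tested members, to 0.702 of its Ad-Con level by the ratio of means. Psmf1, which encodes the inhibitor PI31, was at 0.10 and did not pass (limma adjusted p = 0.37).

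Assembly of the particles needs chaperones that leave the finished complex. The members include 3 chaperones of the 19S base. Of these, Psmd5 (S5b) rose from 7.88 ± 0.167 to 10.8 ± 0.239 FPKM (log2 fold change 0.44, limma adjusted p = 4.71e-04) and Psmd10 (gankyrin) from 26.1 ± 0.650 to 34.4 ± 2.34 FPKM (0.40, limma adjusted p = 0.0014). Psmd9 (p27) was at -0.02 and did not pass. Of the 4 chaperones of the 20S alpha ring 0 were called: Psmg3 was at 0.33, Psmg4 at 0.27, Psmg1 at 0.15 and Psmg2 at -0.02. Their intervals were wide, from -0.03 to 0.69 for Psmg3, which had 81 to 145 reads per library. Psmg4 passed at an unadjusted p of 0.034 (limma adjusted p = 0.073). Among members of other roles, Psmc3, Psmd4 and Psmd7 (higher) and Psma5 (lower) also had an unadjusted limma p below 0.05 without being called.

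The rule also took in 4 genes outside the standard particle, among them Psme2b. The thymus subunit gene Psmb11 had 0 to 6 reads per library and was not tested. The testis subunit gene Psma8 had 21 to 54 reads per library and a log2 fold change of 0.35 with an interval from -0.24 to 0.95. Psmc3ip encodes a factor of meiotic recombination and not a proteasome subunit, and was at -0.29 (limma adjusted p = 0.11). Without these 4 genes the rest held 41 tested genes, of which 10 were called higher and 3 lower, with a median log2 fold change of 0.09.

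**Figure D5:**
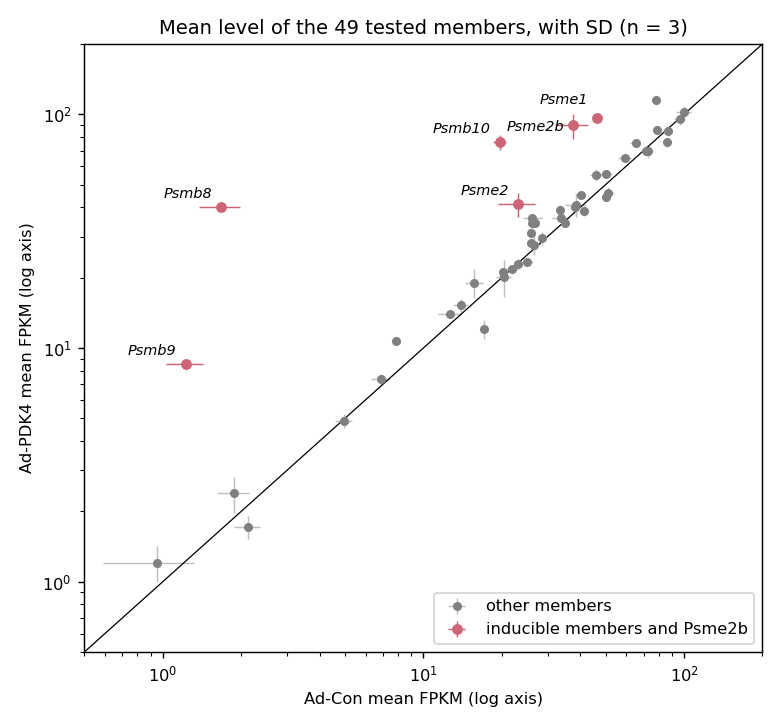
Mean FPKM (log axes) in Ad-PDK4 against Ad-Con libraries for the 49 tested members, with bars of 1 SD (n = 3 per group) and a line of equal levels. Psmb8 and Psmb9 start near the bottom of the range, at 1.68 and 1.23 FPKM, whereas Psmb10, Psme1, Psme2 and Psme2b start at 19.6 to 46.6 FPKM.

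Replicates agreed closely over the members. The median coefficient of variation was 4.57% in Ad-Con and 5.05% in Ad-PDK4 libraries, and the highest values were 38.0% for Psma8 and 18.2% for Psmg2. Standard subunit genes differed in FPKM within a ring, from 23.0 for Psma3 to 99.6 for Psma6 in the alpha ring of Ad-Con libraries. With principal transcript lengths Psma7, at 139, took the place of the most abundant, so this order depends on the length used.

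Other proteasome factors that the naming rule misses were listed apart. Of 13, 4 were called higher (Zfand2a 0.41, Akirin2 0.30, Fbxo7 0.27, Txnl1 0.26) and 2 lower (Uchl5 -0.65, Zfand5 -0.53), with a median of 0.11. These shares, 30.8% and 15.4%, lay near the 21.8% and 20.8% of all genes. Akirin2 helps import proteasomes into the nucleus, Zfand2a and Zfand5 encode zinc finger proteins that bind the proteasome, and Uchl5 encodes a deubiquitinase of the 19S particle. Pomp, whose product drives the maturation of new 20S cores and of immunoproteasomes, was at -0.01 (SE 0.07) and did not pass. The 19S subunit genes Adrm1 (0.22, limma adjusted p = 0.076) and Sem1 (0.11) did not pass either.

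Of 18 genes for ubiquitin and for delivery to the proteasome, 9 were called higher (50% beside 21.8% of all genes) and 2 lower (11.1% beside 20.8%), with a median of 0.22. The p97 adaptor gene Faf2 rose by 0.43 and the shuttle factor gene Ubqln4 by 0.36. Vcp, which encodes the segregase p97, fell by 0.26 and Ubqln2 fell by 0.23. Rps27a, a ubiquitin fusion gene, was at -0.82 with an SE of 0.58 and ranged from 2431 to 9747 reads per library.

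Nrf1, the product of Nfe2l1, is known to raise proteasome genes together when the proteasome is impaired, and Nrf2, the product of Nfe2l2, to do so under oxidative stress. Of 12 genes of both axes, 5 were called higher (41.7%, beside 21.8% of all genes) and 2 lower (16.7%, beside 20.8%), with a median of 0.02. Maff rose by 0.77, Mafk by 0.72, Nfe2l2 by 0.36, Keap1 by 0.27 and Nfe2l1 by 0.23. The Nrf2 target Nqo1 fell by 1.06 and the repressor gene Bach1 by 0.62, and the targets Gclm (0.01), Hmox1 (-0.01) and Txnrd1 (-0.02) did not pass.

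Regulators that act on immunoproteasome and MHC class I genes were a list of 16, of which 13 were tested, 10 were called higher and 0 lower (0 also at an unadjusted p below 0.05), with a median of 1.22. The share called higher was 76.9%, beside 21.8% of all genes. Irf7 rose by 5.00, Nlrc5, the class I transactivator, by 3.67, Stat2 by 2.62 and Irf1 by 1.35. Ifnar2, a chain of the type I interferon receptor, rose by 1.22, whereas Ifnar1 (0.04), Ifngr2 (0.06) and Jak1 (0.10) did not pass. Ifng had 0 reads in all 6 libraries, which allows up to 3 reads in each, and Ifnb1 had 0 reads in each Ad-Con library and 7, 5 and 5 in the Ad-PDK4 libraries. A list of peptide supply and MHC class I genes, cytosolic peptidase genes among them, held 16 tested genes. Of these, 9 were called higher (56.2% beside 21.8% of all genes) and 3 lower (18.8% beside 20.8%), with a median of 0.51. H2-K1 rose by 3.96, H2-D1 by 3.27 and B2m by 1.94. The cytosolic peptidase genes Thop1 (fell by 0.39), Blmh (fell by 0.26) and Npepps (fell by 0.23) moved the other way. Many genes of these lists were already known to change in these libraries when the lists were written, so their counts describe them and support nothing further.

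Cell type markers were checked because leukocytes carry immunoproteasomes at rest. Of 8 macrophage and leukocyte markers, 6 (Ptprc, Adgre1, Tyrobp, Laptm5, C1qa and Itgam) had at most 3 reads in every library, and the summed FPKM of the list was 13.3 to 16.4 in Ad-Con and 3.69 to 5.50 in Ad-PDK4 libraries, most of it Cd68, which fell by 1.74. The remaining marker Csf1r, too low to be tested, went the other way, with 11, 23 and 35 reads in Ad-Con and 56, 62 and 61 reads in Ad-PDK4 libraries, without overlap. Of 4 lymphocyte markers, 3 had 0 reads throughout, and 5 endothelial markers summed to 0.617 to 0.798 against 0.885 to 1.18 FPKM. Of 8 smooth muscle markers, which summed to 171 to 172 FPKM in Ad-Con and 134 to 145 FPKM in Ad-PDK4 libraries, Acta2 fell by 1.11 and Tpm2 by 0.33 and Cald1 rose by 0.36. The defining markers Tagln, Myh11 and Cnn1 were near 0, at 4 to 20, 2 to 10 and 8 to 30 reads per library. Their near absence went against the label VSMC. Acta2, Cald1, Tpm2 and Smtn were expressed, but they do not settle the cell type. The 4 fibroblast markers summed to 1119 to 1201 against 589 to 657 FPKM, where Col1a1 fell by 1.28, Lum fell by 1.16 and Dcn rose by 0.83. Pdgfra was at 20.5 ± 0.729 FPKM in Ad-Con and 19.9 ± 0.804 FPKM in Ad-PDK4 libraries and did not pass the test. In bulk samples fewer cells of a type and less RNA per cell cannot be told apart, and the part of these marker changes in the proteasome results was not tested.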

How the data were processed

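RNA sequencing of 3 Ad-Con and 3 Ad-PDK4 libraries was analysed from 1 table of FPKM values that the authors computed per gene and library and deposited without pooling. The submitters' processing notes name CASAVA 1.8, fastp, HISAT2 2.0.5, featureCounts 1.5.0-p3, DESeq2 1.20.0 and the build GRCm39. The coordinates of 98.3% of 54495 matched identifiers equal those of GENCODE M21, however, so they are given on GRCm38. Whether counting used strand is not given in the sources used here. The labels name a SMARTER kit for the libraries and the study's methods a NEBNext Ultra kit. The columns of the table gave whole reads for 100% of non-zero values (tolerance 0.01 reads) once multiplied by gene length. Limits on counts cover counting error only, as PCR copies are not separate molecules.

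The test was limma 3.58.1 (R 4.3.3) on log2(FPKM + 0.1), with 2 groups, no covariates and trended, robust moderation. Adjustment by Benjamini-Hochberg covered the 13423 genes whose mean reached 0.5 FPKM. Every log2 fold change is on that scale, which understates changes of low genes. Ratios of means carry no pseudocount. For the 3 catalytic pairs the test was an exact permutation, two-sided. Start regions came from RefSeq tables (GRCm38.p6), with both strands searched. Shared sequence was counted as 50-base stretches of transcripts.

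Per-library values were given for the inducible genes and Psmb5, Psmb6, Psmb7, Psme3 and Psme4. Otherwise named were the highest and lowest member of each role, every other called member, the 3 largest called rises and falls of each list, tested protein-coding genes within 50 kb of an inducible gene, and Pdk4. Further genes named without a call, and Psmc5 and Psme2b with per-library values, were picked with their values in view. The members and gene lists were chosen with earlier results of these data known. Nrdc of the peptide list was not found under that symbol. Some list genes that the rule would name are not reported here. Alternatives were pseudocounts of 1 and 0.01, no filter or a minimum of 5 FPKM, 3 other scalings, plain moderation, limma-voom on recovered reads, a replicate block, each library left out, and, after seeing the data, principal transcript lengths and the sum of Psme2 and Psme2b.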

Additional observations from a re-analysis of the deposited data

How the results depend on the processing

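Of the 19 called members, 15 kept their call at an adjusted p below 0.05 and their direction under every alternative fit, among them the 5 inducible genes, Psme2b, Psme3, Psme4 and Psmc5. Psmb9 had 15 alternatives, since it falls below a minimum of 5 FPKM, and the others had 16. The exceptions were Psmc4 (lost in 7 of 16), Psmb1 (5), Psmb4 (3) and Psmd8 (1). Of the 30 members not called, 8 were called in some alternative and 12 changed sign. The cause was not tested.

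The median of the inducible members was 1.498 with a minimum of 5 FPKM, which leaves out Psmb9. The median of the rest was 0.13 after rescaling to TPM and 0.040 after quantile normalization, which called 5 members lower in place of 3. The median of all 13423 genes tested moved in the same directions, from -0.003 to 0.037 and -0.035. Requiring a 2-fold change as well, which Psme2, Psme3, Psme4 and Psmc5 do not reach, left 5 members called higher and 0 lower, and 530 and 360 of all genes. Rescaling to TPM gave 90.9% of member calls higher and quantile normalization 75.0%, against 84.2%. The same share over all genes moved alike, to 58.0% and 44.7% from 51.1%.

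After rescaling to TPM the values not called turned to 0.026 for Psmb5, 0.012 for Psmc1, 0.0084 for Psmd2, 0.0047 for Psmd3, 0.036 for Psma3, 0.031 for Psmd13, 0.020 for Psmg2 and 0.016 for Psmd9, and quantile normalization gave -0.0069 for Psma1, -0.0033 for Psmd6 and -0.0058 for Psmd1.

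Leaving out 1 library at a time gave 14 to 17 members called higher and 1 to 3 lower, 2314 to 2682 of all genes higher and 2156 to 2699 lower, medians of 1.899 to 2 (inducible) and 0.058 to 0.10 (rest), and log2 ratio differences of 4.45 to 4.69 (Psmb8 to Psmb5), 2.62 to 2.86 (Psmb9 to Psmb6) and 1.98 to 2.13 (Psmb10 to Psmb7). The members that changed sign ranged from -0.012 to 0.086 (Psma6), -0.051 to 0.027 (Psmb5), -0.040 to 0.033 (Psma3), -0.16 to 0.068 (Psmg2), -0.058 to 0.015 (Psmd13), -0.075 to 0.031 (Psmd9), -0.064 to 0.010 (Psmc1) and -0.016 to 0.10 (Psmd6).

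Libraries with the same replicate number did not deviate together (correlations of -0.046, -0.031 and -0.0013, and -0.023 to 0.057 for other numbers). So few libraries cannot show whether those with the same number shared a mouse or culture. The fit with the replicate block called 16 members higher and 3 lower, and 2759 and 2626 of all genes, and changed no call of a member.

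Genes with few reads per library, such as Psma8 and Psmg3, had wide intervals.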
